A study of Mus musculus with 5 samples.

Results

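The 8 genes described here encode structural RNAs that work without being translated: Rpph1, Rmrp, Rn7sk, Terc, Rny1, Rny3, Rn7s1 and Rn7s2. They were taken by symbol from a table of 52143 mouse genes, each symbol had 1 row, and all 8 passed the filter on low values that 10338 genes passed. The list was chosen by role with earlier results of these samples known, among them the levels and the group differences, Rpph1 having already been seen to be higher in SIGLEC12. Their levels and group differences are therefore a description, and the p-values printed for them are not independent evidence.

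RNA was sequenced from colon tumors of female mice, as 5 samples that the labels do not tie to single mice. The 2 Control samples, replicates 1 and 4, came from mice with Villin1-Cre-ERT, a tamoxifen-inducible Cre recombinase under the promoter of the intestinal epithelial gene Villin1. The 3 SIGLEC12 samples, replicates 2, 3 and 4, came from mice with the same Cre. These mice also carried 1 ROSA26 allele with a loxP-flanked EGFP stop followed by human SIGLEC12, which encodes the lectin Siglec-XII. Mice of both groups were 8 weeks old at the first of 5 days of tamoxifen (10 mg/ml), then received azoxymethane (AOM, a carcinogen) at 10 mg/kg and repeated cycles of 2.0% dextran sodium sulfate (DSS, which injures the colon epithelium) for 5 days with 14 days of recovery, up to day 87. Recombination takes place in cells in which the Villin1 promoter is active, whereas the RNA came from whole tumors. Although the series text gives 3 mice to each condition, only the 2 Control samples named here were analysed.

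Levels are the authors' log2(TPM + 1), where TPM (the unit of the table) is the abundance of an RNA per length relative to all RNA of its sample, and errors are SD between samples. The read depth behind each value is unknown. Protein-coding genes took 5.70% and 6.73% of the TPM total in Control and 8.75% to 9.72% in SIGLEC12, while 4 abundant entries annotated as microRNA genes took 77.2% to 85.9%. The median difference (SIGLEC12 minus Control) of all tested genes was 0.38 on the deposited scale and 0.01 after each sample was rescaled to the same protein-coding total, so each member is given on both scales. Summed markers of columnar epithelium, the colon lining, were at 309 and 902 TPM in Control and at 1076 to 1707 in SIGLEC12, and those of squamous epithelium, which the colon lining does not form, were at 2641 TPM in Control replicate 1 and between 358 and 913 in the other samples. Summed markers of fibroblasts (8.71 and 10.5 TPM in Control, 18.0 to 57.9 in SIGLEC12), red blood cells (1.40 and 0.516 against 2.46 to 10.4) and lymphocytes (0.313 and 0.502 against 0.758 to 1.76) were, like those of columnar epithelium, higher in every SIGLEC12 sample. So were Rpph1, 7SL, Rn7sk and 54.1% of all tested genes on the deposited scale, the only one on which the marker sums were taken. Of 5 listed genes each, 4 of the lymphocyte and 3 of the red blood cell markers were under 1 TPM in every sample. The summed markers of smooth muscle, myeloid cells and neutrophils overlapped between the groups. The part of this makeup in the values below was not tested.

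The 8 RNAs serve different machines. Rpph1 is the catalytic RNA of ribonuclease P (RNase P), which trims the leader of precursor transfer RNAs, and Rmrp is the related RNA of ribonuclease MRP, which cuts precursor ribosomal RNA and shares most of its proteins with RNase P. Rn7s1 and Rn7s2 are copies of 7SL, the RNA scaffold of the signal recognition particle that directs ribosomes to the endoplasmic reticulum. Rn7sk is 7SK, which holds the elongation factor P-TEFb inactive together with Hexim proteins. Rny1 and Rny3 are Y RNAs, bound by the Ro and La proteins, and Terc is the RNA of telomerase, which carries the template for telomere repeats. Apart from Terc, a product of RNA polymerase II, these genes are transcribed by RNA polymerase III.

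The RNAs were read from the GENCODE release M21 transcripts (GRCm38) that the table's identifiers name. Rpph1 and Rmrp are shown because the data separate these related RNAs; the 2 runs of 9 bases that both hold are in capitals. The alignment of the whole RNAs was identical at 51.9% of its columns. Bases 1 to 300 of the 319 of Rpph1 (ENSMUSG00000092837, chr14:50807449-50807767, minus strand) are given, and Rmrp (ENSMUSG00000088088, chr4:43492788-43493058, minus strand, 271 bases) is given whole.
Rpph1: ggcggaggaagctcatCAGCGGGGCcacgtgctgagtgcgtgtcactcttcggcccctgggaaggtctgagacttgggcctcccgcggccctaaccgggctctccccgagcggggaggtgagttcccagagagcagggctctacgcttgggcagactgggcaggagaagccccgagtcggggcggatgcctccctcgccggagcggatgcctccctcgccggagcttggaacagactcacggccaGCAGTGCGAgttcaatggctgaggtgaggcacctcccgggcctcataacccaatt
Rmrp: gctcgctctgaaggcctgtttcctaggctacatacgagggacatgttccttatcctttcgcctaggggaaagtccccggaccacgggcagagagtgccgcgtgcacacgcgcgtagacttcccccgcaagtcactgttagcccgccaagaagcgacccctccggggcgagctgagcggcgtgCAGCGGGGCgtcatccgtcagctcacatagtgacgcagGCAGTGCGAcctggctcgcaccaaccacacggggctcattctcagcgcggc

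The Y RNAs are shown because they were the members with lower means in SIGLEC12. Rny1 (ENSMUSG00000065701, chr6:47788069-47788180, minus strand) has 112 bases and Rny3 (ENSMUSG00000064945, chr6:47781624-47781725, plus strand) has 102, and 72.3% of the aligned columns were identical. The runs of at least 8 bases found in both are in capitals.
Rny1: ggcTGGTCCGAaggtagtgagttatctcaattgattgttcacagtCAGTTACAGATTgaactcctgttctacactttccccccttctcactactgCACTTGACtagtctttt
Rny3: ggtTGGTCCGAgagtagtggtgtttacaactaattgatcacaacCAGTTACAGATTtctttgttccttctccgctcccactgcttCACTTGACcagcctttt

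The 7SL copies Rn7s1 (ENSMUSG00000099021, chr12:69159295-69159594, plus strand) and Rn7s2 (ENSMUSG00000099250, chr12:69361182-69361481, minus strand) were identical over all 300 bases. The table gives both the same value in every sample, so they are 1 measurement and reads of the 2 copies cannot be told apart. The first 120 of the 423 bases of Terc (ENSMUSG00000064796, chr3:96414437-96414859, minus strand) are shown for the template, with the letters CTAACCC at bases 29 to 35 in capitals, which are complementary to the telomere repeat.
Terc: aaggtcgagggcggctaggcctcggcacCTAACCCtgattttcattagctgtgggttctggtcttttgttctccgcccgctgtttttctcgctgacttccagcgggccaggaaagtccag

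7SL and 7SK were the most abundant of the 8, and the 7SL copies stood at rank 6 and Rn7sk at rank 8 of the table by mean TPM. Rpph1 followed at rank 9, Rmrp at 15, Rny1 at 78 and Rny3 at 115, while Terc stood at rank 8531. In Control, each 7SL copy (13.05 ± 0.06, SD, n = 2) and Rn7sk (13.11 ± 0.28, SD, n = 2) did not differ beyond their spread. In SIGLEC12 each 7SL copy (14.15 ± 0.32, SD, n = 3) stood above Rn7sk (13.67 ± 0.21, SD, n = 3) on average with overlapping samples. This holds for a single copy only. The lowest ratio of a copy to Rn7sk was 0.864, in Control replicate 4, so the 2 copies summed lay above Rn7sk in every sample. Rny1 and Rny3 overlapped in SIGLEC12 and lay close together in Control, and the samples of the remaining neighbours in this order did not overlap within either group. Summed, the 8 entries took 2.86% and 3.27% of the TPM total in Control and 4.78%, 7.05% and 6.33% in SIGLEC12.

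**Figure D1:**
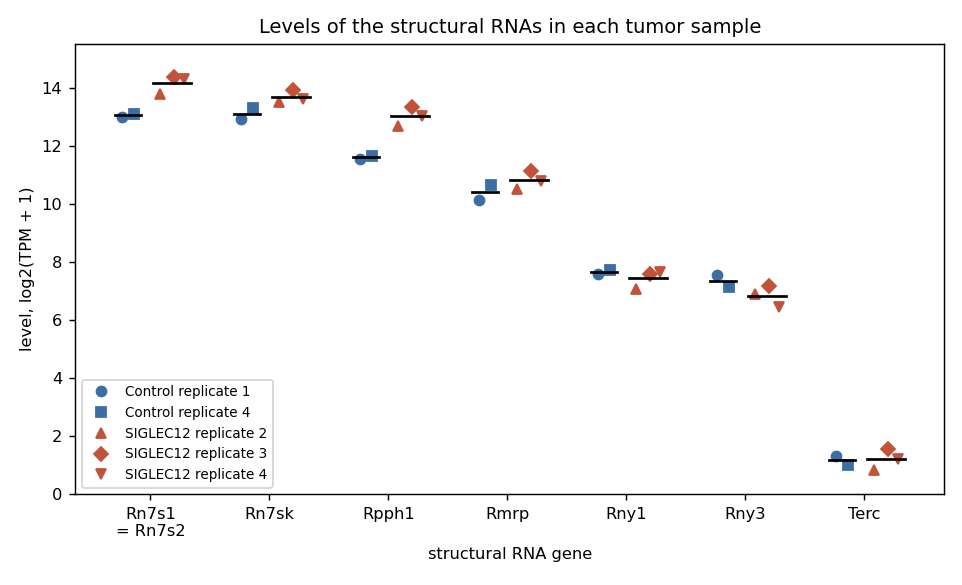
Level of each structural RNA, in log2(TPM + 1), with 1 point per tumor sample and a bar at the mean of each group (2 Control and 3 SIGLEC12 samples). Rpph1, Rn7sk and the identical pair Rn7s1 and Rn7s2 have all SIGLEC12 points above both Control points, while the points of Rmrp, Rny1, Rny3 and Terc overlap.

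Rpph1 had the widest gap between the groups among the 8. It stood at 11.53 and 11.66 in Control replicates 1 and 4 and at 12.67, 13.32 and 13.04 in SIGLEC12 replicates 2, 3 and 4. Every SIGLEC12 sample lay above both Control samples. In RNA from whole tumors, more cells of a type that is rich in Rpph1 and more Rpph1 per cell cannot be told apart. The mean went from 11.60 ± 0.09 (SD, n = 2) to 13.01 ± 0.33 (SD, n = 3), a log2 difference of 1.41 (SE 0.22), or 2.71-fold by mean TPM. In limma's test over all 10338 genes its adjusted p was 0.0974, the smallest that any gene reached. Other genes tie at this value, among them Rn7s1 and Rpp21, so it does not rank Rpph1 above them. After rescaling to the protein-coding total the samples were still separated, at 12.01 and 11.90 in Control and 12.52, 13.18 and 12.75 in SIGLEC12, with a difference of 0.86 (SE 0.24, adjusted p = 0.457). Without Control replicate 4 the deposited difference was 1.48 (adjusted p = 0.0384), a fit that leaves 1 Control sample, assumed to vary like the others, and in which 1723 genes were called higher.

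Rmrp, the partner of Rpph1 in the same enzyme family, did not separate the groups. Its levels were 10.14 and 10.65 in Control replicates 1 and 4, and 10.51, 11.12 and 10.78 in SIGLEC12 replicates 2, 3 and 4. Control replicate 4 lay above SIGLEC12 replicate 2. The difference was 0.41 (SE 0.27, adjusted p = 0.286) as deposited and turned to -0.14 (SE 0.26, adjusted p = 0.818) after rescaling, to -0.036 with median-ratio size factors and to -0.12 when the 4 most abundant entries were left out of the total. Leaving out 1 sample moved the deposited difference to 0.16 without Control replicate 1, 0.66 without Control replicate 4 and 0.25 without SIGLEC12 replicate 3. A second entry of 281 bases, listed as AL732506.1, covers the Rmrp locus on the same strand and contains all 241 of the stretches of 31 bases in Rmrp, so reads could be split between them. That entry held 19.9 to 43.6 TPM, against 1128 to 2228 TPM for Rmrp, and summing both gave a difference of 0.40.

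The ratio of Rpph1 to Rmrp within a sample was set beside the levels. It does not change when all TPM of a sample are multiplied by the same number. Rpph1 was 2.62 and 2.02 times Rmrp in Control replicates 1 and 4, and 4.47, 4.60 and 4.78 times Rmrp in SIGLEC12 replicates 2, 3 and 4. On the log2 scale the ratio went from 1.20 ± 0.27 (SD, n = 2) to 2.21 ± 0.05 (SD, n = 3). All SIGLEC12 samples were above both Control samples. This ratio was formed after the values were seen and is a description with no test.

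7SL, the RNA of the signal recognition particle, was also higher in each SIGLEC12 sample. Rn7s1 and Rn7s2 each stood at 13.00 and 13.09 in Control replicates 1 and 4 and at 13.78, 14.37 and 14.30 in SIGLEC12 replicates 2, 3 and 4. The groups did not overlap, and the difference was 1.10 (SE 0.20, adjusted p = 0.0974), 2.18-fold by mean TPM. On the rescaled values it was 0.55 (SE 0.22, adjusted p = 0.458), with 13.48 and 13.33 in Control against 13.62, 14.23 and 14.01 in SIGLEC12, again without overlap. Without Control replicate 4 the deposited difference was 1.15 (adjusted p = 0.0428), under the same limit as for Rpph1. Rn7s6, a listed 7SL copy that shares 143 of the 270 stretches of 31 bases of Rn7s1, was far less abundant, at 0.87 and 0.76 in Control and 1.33 to 1.60 in SIGLEC12. In all, 17 other genes of the table share such stretches with Rn7s1, Rn7s2 among them. Entries annotated as microRNA genes overlap both copies on the same strand, Gm47287 and Gm47295 at Rn7s1 and Gm47299 and Gm47305 at Rn7s2. Reads could be split with these entries, whose levels were not set beside 7SL.

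Rn7sk (ENSMUSG00000065037, chr9:78175303-78175633, minus strand, 331 bases), the 7SK RNA, was separated between the groups on the deposited scale only. It stood at 12.91 and 13.30 in Control replicates 1 and 4 and at 13.49, 13.90 and 13.60 in SIGLEC12 replicates 2, 3 and 4. The lowest SIGLEC12 sample was close above the higher Control sample. The difference of 0.56 (SE 0.19, adjusted p = 0.111) became 0.01 (SE 0.20, adjusted p = 0.989) after rescaling, where the groups overlapped, and -0.18 under quantile normalization, which ties the most abundant genes to fixed values. Without Control replicate 1 the deposited difference was 0.37. Rn7sk shares 219 of its 301 stretches of 31 bases with 25 other genes of the table, mostly provisional copies, and the copy Gm24447 held 200 to 347 TPM against 7696 to 15300 TPM for Rn7sk.

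Measured against 7SK in the same sample, Rpph1 and 7SL were higher in SIGLEC12 while the Y RNAs were lower. The ratio of Rpph1 to Rn7sk was 0.384 and 0.320 in Control replicates 1 and 4, and 0.566, 0.669 and 0.675 in SIGLEC12 replicates 2, 3 and 4. For each 7SL copy the ratio to Rn7sk was 1.07 and 0.864 in Control and 1.22, 1.38 and 1.62 in SIGLEC12. Neither ratio overlapped between the groups. The log2 ratio of Rny1 to Rn7sk was -5.33 and -5.59 in Control and -6.43, -6.33 and -5.95 in SIGLEC12, and that of Rny3 was -5.37 and -6.19 in Control and -6.61, -6.73 and -7.17 in SIGLEC12. Both Y RNA ratios were lower in every SIGLEC12 sample. The ratio of Rmrp to Rn7sk differed least, with log2 values of -2.77 and -2.65 in Control and -2.98, -2.78 and -2.82 in SIGLEC12, where all SIGLEC12 samples were lower and the means were 0.15 apart, at -2.71 and -2.86. How many of all genes are apart in their ratio to Rn7sk was not counted. Rn7sk itself was at 1.01-fold per protein-coding TPM, so these ratios come near the rescaled values. On those, 15.6% of all tested genes were apart and higher and 16.8% apart and lower.

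**Figure D2:**
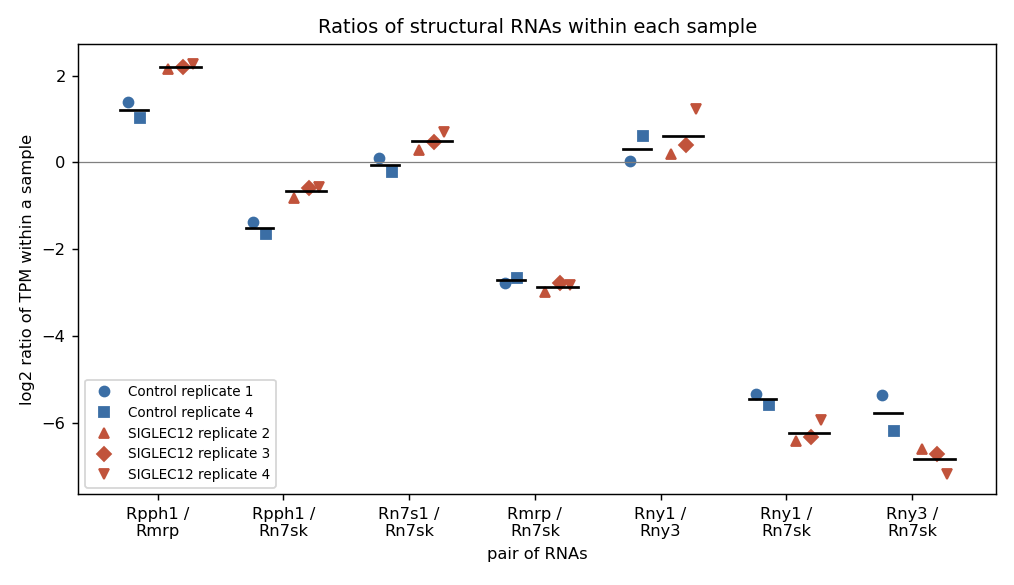
Log2 ratio of the TPM of a pair of RNAs within each tumor sample, with 1 point per sample and a bar at the group mean (2 Control and 3 SIGLEC12 samples). The ratio of Rpph1 to Rmrp was between 1.01 and 1.39 in Control and between 2.16 and 2.26 in SIGLEC12, and the ratio of Rny1 to Rny3 overlapped between the groups.

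The Y RNAs Rny1 and Rny3 had lower means in SIGLEC12, with groups that overlapped as deposited. Rny1 was at 7.59 and 7.71 in Control replicates 1 and 4 and at 7.08, 7.58 and 7.67 in SIGLEC12 replicates 2, 3 and 4, a difference of -0.21 (SE 0.27, adjusted p = 0.561). SIGLEC12 replicate 4 lay between the Control samples, and SIGLEC12 replicate 2 was the lowest. Rny3 was at 7.55 and 7.12 in Control and at 6.90, 7.18 and 6.45 in SIGLEC12, a difference of -0.49 (SE 0.31, adjusted p = 0.269). SIGLEC12 replicate 3 lay between the Control samples. After rescaling, both were below Control in every SIGLEC12 sample, with a difference of -0.76 (SE 0.25) for Rny1 and of -1.04 (SE 0.36) for Rny3, each with an adjusted p of 0.457. Single samples moved the deposited differences, that of Rny1 to -0.030 without SIGLEC12 replicate 2 and to -0.32 without SIGLEC12 replicate 4, and that of Rny3 to -0.28 without Control replicate 1, to -0.29 without SIGLEC12 replicate 4 and to -0.71 without Control replicate 4.

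The Y RNAs differ from the other members in length, and TPM of RNAs this short depends strongly on the fragment length, which is not given in the sources used here. Per 1000 TPM of protein-coding RNA, Rny1 took 3.36 and 3.10 in Control replicates 1 and 4 and 1.52, 2.17 and 2.08 in SIGLEC12 replicates 2, 3 and 4. Rny3 took 3.27 and 2.05 in Control and 1.33, 1.65 and 0.887 in SIGLEC12. This measure divides by the same protein-coding total as the rescaled values and orders the samples in the same way. The groups were therefore again apart for both RNAs, as 16.8% of all tested genes were in that direction after rescaling. Their ratio to each other was 1.03 and 1.51 in Control and 1.14, 1.32 and 2.34 in SIGLEC12, with overlap. None of the 72 stretches of 31 bases of Rny3 occurred in another gene of the table, and 31 of the 82 of Rny1 did.

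Terc, the telomerase RNA, was near the filter in every sample. It held 1.52 and 1.02 TPM in Control replicates 1 and 4 and 0.801, 1.91 and 1.30 TPM in SIGLEC12 replicates 2, 3 and 4. The groups overlapped fully, and the difference was 0.02 (SE 0.24, adjusted p = 0.942) as deposited and -0.30 (SE 0.26, adjusted p = 0.618) after rescaling, and its sign also turned in other settings given with the limits. Tert, which encodes the protein that copies the Terc template, was below the filter, at 0.05 to 0.17 log2(TPM + 1).

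**Figure D3:**
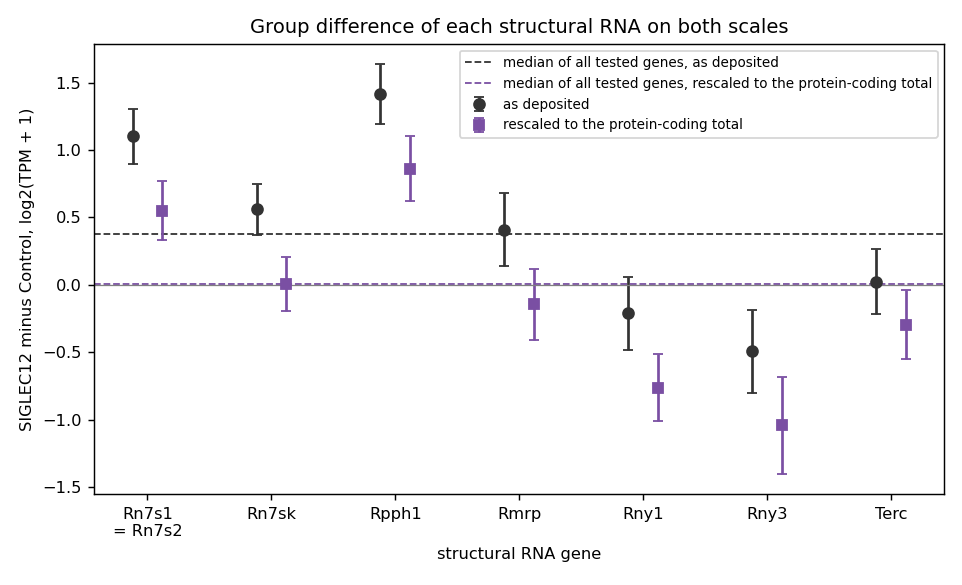
Difference between the groups (SIGLEC12 minus Control, 2 and 3 samples) of each structural RNA in log2(TPM + 1), as deposited (circles) and after rescaling each sample to the same protein-coding total (squares); bars are 1 standard error of the fit, and dashed lines are the medians of all tested genes. Rpph1 and 7SL lie above the median line on both scales, Rn7sk and Rmrp lie near it, and Rny1, Rny3 and Terc lie below it.

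Over the 8 members, 6 differences were above 0 and 2 were below 0 as deposited, with a median of 0.49 against 0.38 over all tested genes, and of -0.07 against 0.01 after rescaling. The lower quartile of all tested genes as deposited was 0.17, so most genes were above 0. With the identical 7SL pair counted as 1, the 7 measurements gave 5 differences above 0 and medians of 0.41 and, after rescaling, -0.14. The counts of members below include both 7SL entries. In limma's test none of the 8 passed an adjusted p of 0.05, and neither did any of the 10338 genes (0% called, with 3543 genes at an unadjusted p under 0.05). At an unadjusted p under 0.05, 4 members were higher, where 33.4% of all tested genes were, and 0 were lower, where 0.909% were. The same 4, Rpph1, Rn7sk, Rn7s1 and Rn7s2, had groups that did not overlap, as did 54.1% of all tested genes in that direction. A difference of at least 2-fold was seen in 3 members, Rpph1 and the 7SL pair, and in 4.68% of all tested genes. On rescaled values the groups were apart and higher in 3 members (15.6% of all tested genes) and apart and lower in 2 (16.8%), the same members having an unadjusted p under 0.05, where 4.45% of all tested genes were higher and 6.31% lower. An exact permutation test on a single RNA cannot go below p = 0.1 with 2 against 3 samples, and Rpph1, Rn7sk and 7SL were at that value.

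The members were next placed among other short RNAs. Of the tested non-coding entries of 100 to 450 bases, 531 besides the members, the median difference was -0.06 as deposited, and 8 of them reached the difference of Rpph1. Their quartiles were -0.38 and 0.46 as deposited, and their median after rescaling was -0.36. Rny1 (-0.21), Terc (0.02) and Rmrp (0.41) lay between these quartiles, Rny3 (-0.49) below them, and Rn7sk, 7SL and Rpph1 above them. Over all tested genes, the difference of Rpph1 stood at percentile 99.2, that of 7SL at 97.0, Rn7sk at 70.1, Rmrp at 53.8, Terc at 14.1, Rny1 at 7.04 and Rny3 at 3.29. Among the listed small structural RNAs, 17 of 22 present entered the fit, and 5 had an unadjusted p under 0.05 and were higher (33.4% of all tested genes were), 0 were lower and 0 passed the adjusted p. Their median difference was 0.86, and 0.39 after rescaling. The 17 entries hold 13 distinct sets of values, over which these medians were 0.67 and 0.15.

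By the rule of smallest p, 3 of these small RNAs are named. Rnu2-10, a gene of the U2 spliceosomal RNA, was at 6.86 and 6.77 in Control replicates 1 and 4 and at 7.46, 8.02 and 7.53 in SIGLEC12 replicates 2, 3 and 4 (difference 0.86, SE 0.27, adjusted p = 0.101). Vaultrc5, the RNA of the vault particle, was at 3.84 and 3.91 in Control and at 4.41, 4.83 and 4.40 in SIGLEC12 (difference 0.67, SE 0.23, adjusted p = 0.112). Rn7s6, described above beside 7SL, was the third (difference 0.69, SE 0.17, adjusted p = 0.0974). After rescaling, Rn7s6 was higher by 0.40 and Rnu2-10 and Vaultrc5 by 0.31 and 0.15, with adjusted p of at least 0.457.

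Overlapping genes were read beside Rpph1 and Rmrp, since their RNAs share bases. Rpph1 shares 203 of its 289 stretches of 31 bases with Ccnb1ip1, a gene on the same strand whose span overlaps it, and Ccnb1ip1 was at 2.45 and 2.41 in Control and at 2.69, 3.47 and 2.93 in SIGLEC12. Its TPM, 4.30 to 10.1, was far under that of Rpph1. Parp2, which starts 73 bases away on the other strand, was at 1.38 and 1.64 in Control and at 1.72, 1.68 and 1.93 in SIGLEC12. Ccdc107, which overlaps Rmrp on the opposite strand, was at 1.94 and 2.45 in Control and at 2.61, 2.87 and 2.51 in SIGLEC12.

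The proteins of RNase P and MRP were measured at low levels. Of 11 listed genes, 8 entered the fit, and all 8 had a difference above 0 and groups that did not overlap, where 54.1% of all tested genes were higher without overlap. An unadjusted p under 0.05 was reached by 4, where 33.4% of all tested genes were higher at that p, and 0 passed the adjusted p. Their median difference was 0.45, beside 0.38 over all tested genes, and 0.16 after rescaling. Rpp21, a subunit of RNase P, was at 1.36 and 1.91 in Control replicates 1 and 4 and at 2.43, 2.36 and 2.81 in SIGLEC12 replicates 2, 3 and 4 (difference 0.90, SE 0.24, adjusted p = 0.0974). The others named by the rule are Rpp14 (0.56, SE 0.18, adjusted p = 0.105) and Pop7 (0.47, SE 0.15, adjusted p = 0.105), both protein subunits of these enzymes. After rescaling, the differences of Rpp21, Rpp14 and Pop7 were 0.49, 0.19 and 0.16.

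The proteins of the 7SK particle and P-TEFb had a median difference below that of all tested genes. Of 7 listed, 6 were tested, with a median of 0.17, 1 higher (33.4% of all tested genes) and 0 lower (0.909%) at an unadjusted p under 0.05. Cdk9, the kinase of P-TEFb, was at 2.16 and 2.39 in Control and at 2.81, 2.66 and 2.90 in SIGLEC12 (difference 0.52, SE 0.18, adjusted p = 0.112). Hexim1, the inhibitor that binds 7SK, differed by 0.23 (SE 0.16, adjusted p = 0.311) and Mepce, which caps 7SK, by 0.20 (SE 0.19, adjusted p = 0.442). On rescaled values the list's median was -0.16.

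Among the signal recognition particle and receptor genes, 10 of 11 listed were in the table and tested. A difference above 0 was seen in 10, where the lower quartile of all tested genes was itself above 0, at 0.17. An unadjusted p under 0.05 was reached by 5, and by 33.4% of all tested genes in that direction. Their median was 0.46, and -0.01 after rescaling. Srp9, a protein that binds 7SL, was at 2.03 and 2.11 in Control and at 2.48, 2.69 and 3.02 in SIGLEC12 (difference 0.66, SE 0.21, adjusted p = 0.104). Srprb, a subunit of the receptor, differed by 0.47 (SE 0.15, adjusted p = 0.106), and Srp19 by 0.49 (SE 0.18, adjusted p = 0.123). For the Y RNAs, Ssb, the La protein, differed by 0.53 (SE 0.19, adjusted p = 0.115) and Trove2, the Ro protein, by 0.26 (SE 0.16, adjusted p = 0.256). Both were higher in every SIGLEC12 sample, as were 54.1% of all tested genes. After rescaling their differences were 0.03 and -0.0033.

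Of the 7 telomerase proteins, 5 were tested and 2 were higher at an unadjusted p under 0.05 (33.4% of all tested genes), Nop10 (0.53, SE 0.21, adjusted p = 0.133) and Nhp2 (0.53, SE 0.22, adjusted p = 0.144). Both belong to the box H/ACA proteins that bind Terc, as does Dkc1 (0.35, SE 0.21, adjusted p = 0.263). The list's median was 0.35, and -0.09 after rescaling.

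The transcription machinery of these genes had differences near the median of all tested genes. For the 12 tested subunits of RNA polymerase III the median difference was 0.33 (-0.04 rescaled), with 3 at an unadjusted p under 0.05, Polr1c (0.66, SE 0.19, adjusted p = 0.0988), Polr3k (0.39, SE 0.15, adjusted p = 0.124) and Polr3c (0.48, SE 0.18, adjusted p = 0.130). Its 14 tested factors had a median of 0.32 (-0.06 rescaled) and 5 such genes. Maf1, the repressor of this polymerase, was at 1.84 and 2.16 in Control replicates 1 and 4 and at 2.92, 2.78 and 2.78 in SIGLEC12 replicates 2, 3 and 4 (difference 0.83, SE 0.18, adjusted p = 0.0974). Gtf3a, the factor TFIIIA of 5S ribosomal RNA genes, differed by 0.79 (SE 0.17, adjusted p = 0.0974), and Snapc2, a subunit of the complex that binds small RNA gene promoters, by 0.79 (SE 0.18, adjusted p = 0.0974). After rescaling these were 0.39, 0.37 and 0.44. Over all 57 tested partner genes, 21 were higher at an unadjusted p under 0.05, which is 36.8% beside 33.4% of all tested genes, and 0 were lower. This count fell to 14, 8 and 5 without SIGLEC12 replicates 2, 3 and 4, fits for which the share over all tested genes was not counted. After rescaling 3 partner genes were higher and 1 lower, beside 4.45% and 6.31% of all tested genes.

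**Figure D4:**
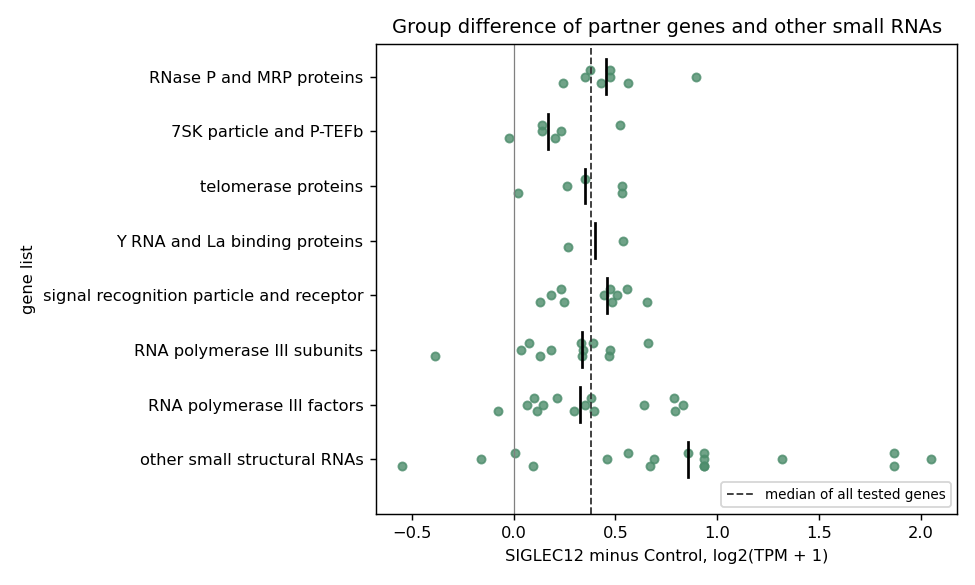
Difference between the groups (SIGLEC12 minus Control, 2 and 3 samples, log2(TPM + 1), as deposited) of each tested gene of the partner lists and of the other small structural RNAs, with 1 point per gene, a bar at the median of each list and a dashed line at the median of all tested genes, 0.38. The list medians of the partner genes lie between 0.17 and 0.46, and the small RNAs spread from -0.55 to 2.05.

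The genes with the profile most like each member over the 5 samples were found by the root mean square difference of their deviations from the gene mean, among 2798 tested genes that averaged 5 TPM or more and had a settled name. Rn7sk was nearest to Rnu1a1, a gene of the U1 spliceosomal RNA, with a distance of 0.01, followed by Naa20 and Klhl9 (0.04 and 0.06). Rmrp was nearest to Eloc (0.08), Rn7sk and Rnu1a1 (both 0.11). Rpph1 was nearest to Selenof (0.06), Rps14 (0.08) and the histone gene Hist2h4 (0.10). Besides its identical copy, 7SL was nearest to the histone gene Hist1h3f and the ribosomal protein gene Rpl10 (both 0.06). The profile of Rny3 was nearest to that of the small nucleolar RNA Snord22 (0.13), with Scarna3a at 0.19, while Rny1 had Krtdap, Fubp1 (both 0.15) and Krt1 (0.16), and Terc had Higd1a (0.12), Tra2a (0.13) and Cd24a (0.14).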

How the data were processed

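The authors deposited 1 table of log2 values for 52143 mouse genes in 5 tumor samples. The values of each column, as 2 to their power minus 1, sum to the same fixed total, so the deposited unit is log2(TPM + 1). Per the submitters' processing notes, kallisto 0.45.0 and GRCm38 were used, whereas the study's methods name another kallisto version and a human reference. The labels name a stranded total RNA kit and the methods an mRNA kit with technical replicate libraries, and whether a column averages libraries is not given in the sources used here. TPM holds no depth, so no interval for counting error is printed. Human SIGLEC12 was not analysed here, and the labels of the knock-in were therefore taken as given.

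Genes with TPM of at least 1 in 2 or more samples (10338) were fitted with limma 3.58.1 in R 4.3.3 (lmFit, eBayes with trend) on log2(TPM + 1), two-sided, with Benjamini-Hochberg adjustment over all of them and a threshold of 0.05. The pseudocount of 1 understates changes of low genes. Groups came from the treatment labels. The methods name technical replicate libraries, and the labels do not say whether each sample is a separate mouse. The p-values therefore measure the spread between these samples, which may not be a spread between mice. For rescaled values, the TPM of each sample was multiplied so that its protein-coding genes (GENCODE M21 biotypes) summed to the mean protein-coding total. Shared sequence was counted as stretches of 31 bases over the M21 transcripts of genes in the table. The fit was also run on simulated data with independent noise for each gene. Those data held no shift common to all genes, so they do not test the fit under such a shift. Members and lists were chosen with earlier results of these data known. From each list the 3 tested genes with the smallest unadjusted p were named, and for each member the 3 nearest profiles. A few items that these rules would name are not reported here. Alternatives were another pseudocount, other filters, other scalings, sample weights, leaving out each sample, summing rows of a symbol and, added after seeing the data, a total without the 4 most abundant entries and ratios within a sample.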

Additional observations from a re-analysis of the deposited data

How the results depend on the processing

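Rpph1, Rn7s1 and Rn7s2 stayed higher and Rny1 and Rny3 lower in SIGLEC12 under all 13 alternative fits. Their adjusted p stayed above 0.05, except for Rpph1 (0.0384) and 7SL (0.0428) without Control replicate 4. Quantile normalization gave the smallest differences of Rpph1 (0.44) and 7SL (0.20). The difference of Rmrp turned to -0.14 after rescaling to the protein-coding total, to -0.036 with median-ratio size factors and to -0.12 without the 4 most abundant entries, the last added after seeing the data. In the same order Terc turned to -0.30, -0.24 and -0.29, and under quantile normalization Terc turned to -0.25 and Rn7sk to -0.18. Terc was at -0.085 with sample quality weights and was removed by the filter at TPM of 5. These scalings brought the median of all genes from 0.38 to between 0.01 and 0.08, and the cause of the reversals was not tested further.

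Leaving out each sample gave 1.26 to 1.58 for Rpph1, 0.99 to 1.29 for Rn7s1 and Rn7s2, and -0.15 to 0.20 for Terc, below 0 without Control replicate 4 and without SIGLEC12 replicate 3. The range was 0.37 to 0.76 for Rn7sk, 0.16 to 0.66 for Rmrp, -0.32 to -0.030 for Rny1 and -0.71 to -0.28 for Rny3. Genes called at an adjusted p under 0.05 numbered 0 to 1723 higher and 0 to 118 lower, the upper counts without Control replicate 4, where the lone Control sample is assumed to vary like the others. With no filter 2 genes were called higher and 88 lower, among many entries at 0. Partner genes at an unadjusted p under 0.05 numbered 5 to 18 higher and 0 to 1 lower when each sample was left out, 7 higher with the filter at TPM of 5, 11 with sample weights, 3 with each of the protein-coding, median-ratio and quantile scalings and 2 without the 4 most abundant entries, with 1 lower under each of these 4 scalings. Of these fits, only the protein-coding scaling had its share over all tested genes counted, 4.45% higher and 6.31% lower. The filter at TPM of 5 left 3476 genes in the fit, against 10338 in the main fit. How many partner genes remained under that filter, or without a sample, was not counted. The partner counts without such a share therefore cannot tell a change in partner genes from one in all genes. Summing the rows of a symbol changed no level, since each member has 1 row. No paired analysis was made, since the labels do not link any Control sample to a SIGLEC12 sample. Read depth is unknown, the groups hold 2 and 3 samples.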
